A study of Mus musculus with 10 samples.

Results

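The nuclear genes of respiratory complexes II to V were examined in laser-captured tumour epithelium of a mouse model of pancreatic ductal adenocarcinoma. Members were the rows of the count table named Sdha, Sdhb, Sdhc, Sdhd, Cyc1 or Cycs, or with a symbol that starts with Uqcr, Cox4i, Cox5, Cox6, Cox7, Cox8 or Atp5. This rule found 45 of the 15624 genes listed: 4 of complex II, 10 of complex III and cytochrome c, 14 of complex IV and 17 of complex V. All tumours came from KPFSR mice with established disease, and the animals were given corn oil, the vehicle (4 libraries), or tamoxifen (6 libraries). From knowledge of the model and not from the labels, both groups carry a mutant Trp53 allele, Flp recombinase driven by Pdx1, a floxed Slc7a11 and a tamoxifen-activated Cre expressed from Rosa26. Tamoxifen then deletes Slc7a11, the cystine importer, and that Cre is present in most cell types of the animal. No tamoxifen group without the floxed allele was among the samples, so the drug and the deletion cannot be told apart. The sources used here give no age, dose or time since tamoxifen.

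Complex II (succinate dehydrogenase) passes electrons from succinate to ubiquinone and is also an enzyme of the citric acid cycle. Complex III hands them on to cytochrome c, complex IV (cytochrome c oxidase) hands them to oxygen, and complex V (ATP synthase) uses the proton gradient that complexes I, III and IV build to make ATP. All of complex II is encoded in the nucleus. Cytochrome b of complex III, the catalytic core of complex IV and part of the membrane sector of complex V are encoded in mitochondrial DNA. The table does not list those mitochondrial genes. The members are therefore the nuclear part only.

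The libraries held 6899347 to 36132316 counts, and members took a share of them of 1.56% ± 0.082 in corn oil libraries (SD, n = 4) and of 1.36% ± 0.136 in tamoxifen libraries (SD, n = 6). Slc7a11, the targeted gene, stood at 38.9, 26.1, 40.1 and 23.2 normalised CPM (counts scaled to equal library size) with corn oil and at 5.90 to 19.3 with tamoxifen, so the groups did not overlap (1.95% of all genes were lower in this way). Its means were 32.1 ± 8.65 (SD, n = 4) and 12.1 ± 5.79 (SD, n = 6), so part of its RNA remained. The log2 fold change of Slc7a11 was -1.41 (SE 0.44, edgeR adjusted p 0.311). All 10 ductal epithelium markers, Epcam and Krt8, Krt18 and Krt19 among them, were present in every library. Tamoxifen replicates 1 to 3 were more alike than any other libraries: across genes, their log2 CPM correlated with a Pearson's r of 0.921 to 0.963, and the remaining 42 pairs of libraries reached 0.878 at most. The 3 were not copies of 1 library (mean chi-square of their counts at least 24.3 per gene, and at least 144 in all other pairs). That value cannot tell separate animals from separate captures of 1 tumour, so whether the 3 are independent is not known. Each was kept, and results are also given without them and with the 3 as 1 sample. Trp53 also differed with treatment, at 7.59 ± 1.47 normalised CPM with corn oil (SD, n = 4) and 149 ± 82.9 with tamoxifen (SD, n = 6). Its log2 fold change was 4.30 (SE 0.61, edgeR adjusted p 0.0362), and the groups did not overlap. The Trp53 difference goes with treatment, so it cannot be told apart from the drug and the deletion. Its part in the member values was not tested. By Xist and Ddx3y, 2 of the corn oil and 1 of the tamoxifen libraries came from females. The labels do not tie libraries to animals, so the p-values measure the spread between these libraries, which may be partly technical.

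Most members were lower with tamoxifen, by a modest amount and with no single gene past the false discovery rate (FDR). Of 44 members that passed the filter on low counts, 37 were lower and 7 higher with tamoxifen, while 50.7% of all 13006 tested genes were lower and 49.3% higher. The median log2 fold change was -0.42 over the members and -0.010 over all tested genes. With an offset for transcript length the member median was -0.077, beside 0.089 for all genes, and 1 member in place of 9 was lower at an unadjusted p under 0.05 (3.7% of all genes). In the edgeR quasi-likelihood test 0 members passed an FDR of 0.05, where 0.0384% of all genes did, and the lowest adjusted p of a member was 0.212 for Cox5b. At an unadjusted p under 0.05 there were 9 members lower, against 5.27% of all genes, and 1 higher, against 4.43%. The first count was 5 without tamoxifen replicate 2, 3 or 5 (3.49%, 3.41% and 5.3% of all genes). It was 16 without replicate 6 (7.07% of all genes). DESeq2 called 1 member lower, Cox5b (0.94% of all genes), and 0 higher (0.948% of all genes). Limma voom with sample quality weights called 16 lower (6.94% of all genes) and 2 higher (2.68% of all genes). In 5 members every tamoxifen library lay below every corn oil library (1.95% of all genes): Cox5b, Cox6b1, Cox7a2, Atp5g1 and Atp5j. In 1 member, Atp5a1, every tamoxifen library lay above (1.28% of all genes).

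**Figure D1:**
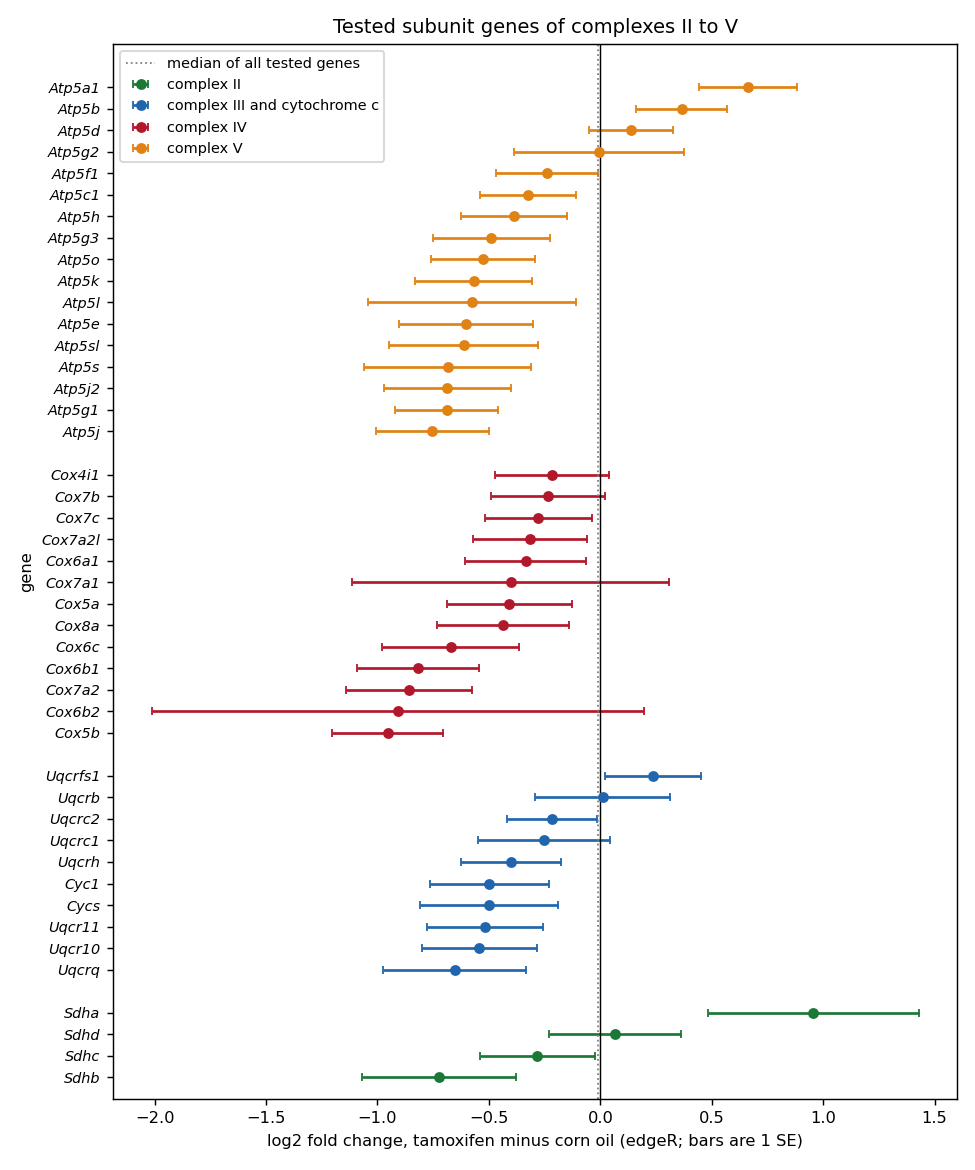
Log2 fold change of each of the 44 tested members, tamoxifen minus corn oil, from the edgeR fit. Points are coloured by complex, bars are 1 SE, and the dotted line is the median of all tested genes (-0.010). In this fit all 13 complex IV points lie left of 0 (7 of 13 with a length offset), and Sdha and Atp5a1 lie farthest right.

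By complex, the median log2 fold change was -0.11 for complex II, -0.45 for complex III and cytochrome c, -0.41 for complex IV and -0.53 for complex V. In complex IV 13 of 13 tested members were lower (7 of 13 with an offset for transcript length, described further on). In complex III it was 8 of 10 (7 with that offset), in complex V 14 of 17 (13) and in complex II 2 of 4 (2). Complex II is not settled in direction: its median was 0.030 without tamoxifen replicates 1 to 3 and ran from -0.23 to 0.16 with 1 library left out. Without tamoxifen replicates 1 to 3 the median was -0.28 over all members, with 1 member lower at an unadjusted p under 0.05 (2.23% of all genes) and 0 higher (2.39% of all genes). Counting these 3 as 1 sample left 5 lower (2.67% of all genes) and 1 higher (2.88% of all genes), with a median of -0.37. Without tamoxifen replicates 4 and 6, which held the most fibroblast marker RNA, 22 were lower (10.1% of all genes) and 2 higher (8.21% of all genes), with a median of -0.55.

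Library by library, the mean log2 CPM of the tested complex IV genes was 7.53, 7.60, 7.63 and 7.58 with corn oil. With tamoxifen it was 7.32, 6.56, 6.60, 7.10, 7.06 and 7.22, so each tamoxifen library lay below each corn oil library. Replicates 2 and 3 were lowest. The corn oil libraries were close together, at 7.58 ± 0.044 (SD, n = 4), while the tamoxifen libraries spread more, at 6.98 ± 0.32 (SD, n = 6). For complex V the means were 7.79 to 7.92 with corn oil and 7.24 to 7.86 with tamoxifen, where replicate 6 lay within the corn oil range. Complex III and cytochrome c stood at 7.98 to 8.31 with corn oil and 7.52 to 8.05 with tamoxifen, with replicate 1 inside that range. Complex II overlapped widely, at 7.12 to 8.43 and 7.45 to 8.16. A mean of logs weights each gene equally. Summed as CPM, complex IV stood at 5613 ± 114 in the corn oil group (SD, n = 4) and at 4064 ± 1262 in the tamoxifen group (SD, n = 6), and tamoxifen replicate 6, at 6206, then exceeded every corn oil library.

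**Figure D2:**
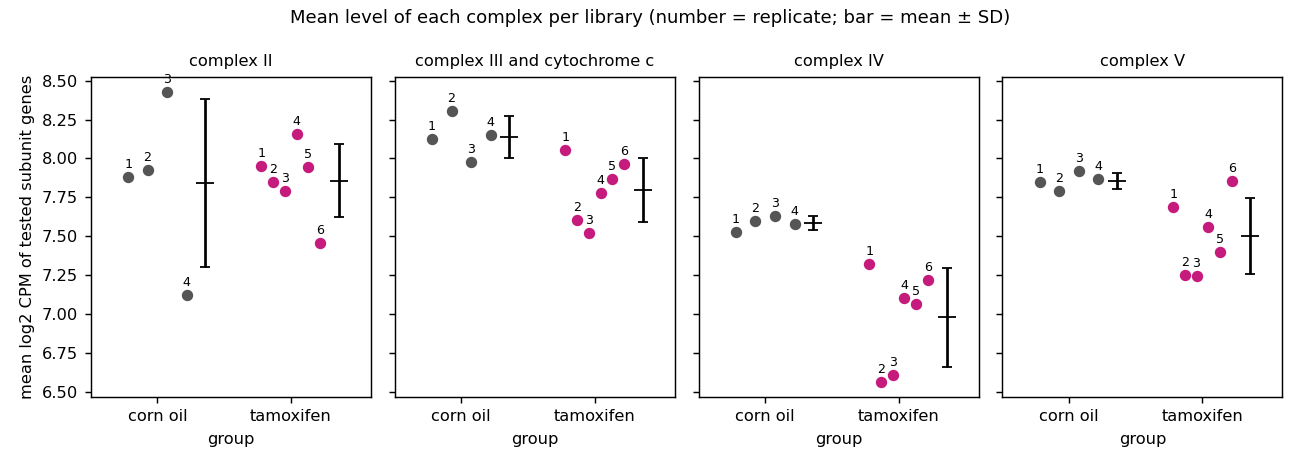
Mean log2 CPM of the tested members of each complex in each library, with corn oil in grey, tamoxifen in magenta, the replicate number beside each point and the mean ± SD as a bar. For complex IV all 6 tamoxifen points (6.56 to 7.32) lie below the 4 corn oil points (7.53 to 7.63), while for complex II the groups overlap.

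Promoter sequence was compared because the transcription factors NRF1, GABP (an ETS-family factor) and YY1 are known to act on respiratory chain genes. RefSeq windows of GRCm38.p6, from 250 bases before to 50 after the start, were found for 36 of the 45 members. On either strand, the NRF1 core GCGCATGC occurred in 8 of these windows (22.2%), against 2.8% of all windows and 5.44% of those of tested genes. The ETS core CCGGAAG occurred in 11 (30.6%), against 9.12% and 18.1%, and the YY1 core AAGATGG in 4 (11.1%), against 6.48% and 7.27%. None of the 3 was found in 18 windows. The NRF1 core can match both strands at 1 place, since it is part of a palindrome, and the ETS and YY1 cores can overlap by the letters AAG, although no member window held both. Members with an NRF1 core had a median log2 fold change of -0.51 (8 of 8 lower) and those with an ETS core -0.52 (10 of 11 lower). It was -0.45 for those with a YY1 core (4 of 4 lower) and -0.45 for those with none of the 3 (14 of 18 lower). Over all 44 tested members it was -0.42 (37 lower). These values carry no length offset, and differences between the motif groups were not tested. A match is a description of letters and not a binding site.

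Stretches of 150 bases that end just before the more upstream of the RefSeq and GENCODE starts are shown for 6 members, read 5′ to 3′ on the gene's strand. They are the electron carrier Cycs and the abundant Cox6a1 with an NRF1 core, and Uqcr11 and Atp5e with an ETS core. Also shown are Cox5b and Atp5j, which were among the lowest with tamoxifen and hold no match. Past the stretch shown, the Cox6a1 window also holds an ETS core, at -16 from the RefSeq start. The Uqcr11 window likewise holds an NRF1 core, at -4. Capitals mark the motif letters.
Cycs, chr6:50566570-50566719, minus strand: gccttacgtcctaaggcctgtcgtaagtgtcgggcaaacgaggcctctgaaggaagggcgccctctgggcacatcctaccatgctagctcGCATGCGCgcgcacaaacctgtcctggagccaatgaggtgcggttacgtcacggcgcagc
Cox6a1, chr5:115348982-115349131, minus strand: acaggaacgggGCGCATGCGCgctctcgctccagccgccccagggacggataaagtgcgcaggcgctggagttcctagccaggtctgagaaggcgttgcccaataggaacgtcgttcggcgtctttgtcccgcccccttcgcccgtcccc
Uqcr11, chr10:80406831-80406980, minus strand: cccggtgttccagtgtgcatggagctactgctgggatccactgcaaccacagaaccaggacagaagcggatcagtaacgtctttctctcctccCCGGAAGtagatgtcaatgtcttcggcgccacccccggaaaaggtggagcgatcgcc
Atp5e, chr2:174464106-174464255, minus strand: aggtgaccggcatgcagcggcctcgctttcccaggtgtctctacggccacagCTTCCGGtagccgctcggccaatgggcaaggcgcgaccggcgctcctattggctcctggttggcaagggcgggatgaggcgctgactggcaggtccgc
Cox5b, chr1:36691299-36691448, plus strand: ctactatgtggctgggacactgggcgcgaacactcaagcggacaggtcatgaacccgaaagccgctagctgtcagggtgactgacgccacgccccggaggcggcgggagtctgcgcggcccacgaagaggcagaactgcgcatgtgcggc
Atp5j, chr16:84835626-84835775, minus strand: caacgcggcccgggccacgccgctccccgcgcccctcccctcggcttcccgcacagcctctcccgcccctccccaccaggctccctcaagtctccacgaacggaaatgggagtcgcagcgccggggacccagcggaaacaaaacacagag

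Complex II was split. Its catalytic pair, the flavoprotein Sdha and the iron-sulphur subunit Sdhb, pointed in opposite directions. Sdha (chromosome 13, 74322254 to 74350280, minus strand of GRCm38) stood at 150.3, 118, 199 and 35.6 normalised CPM with corn oil and at 77.8, 253 and 356 (lowest, median, highest) with tamoxifen. The groups overlapped, with corn oil replicate 4 lowest of all and tamoxifen replicates 2 and 3 highest. The means were 126 ± 68.7 (SD, n = 4) and 244 ± 107 (SD, n = 6), which gave 0.96 on the log2 scale (SE 0.47, edgeR p 0.0655, adjusted p 0.555). Without tamoxifen replicates 1 to 3 it was 0.41 (edgeR p 0.472). Sdhb (chromosome 4, 140961203 to 140979193, plus strand) stood at 328, 499, 392 and 251 with corn oil and at 142, 177 and 462 with tamoxifen. Of the tamoxifen libraries 5 lay below every corn oil library and replicate 4 lay among them. Its log2 fold change was -0.72 (SE 0.34, edgeR p 0.0562, adjusted p 0.532), and it was -0.40 without tamoxifen replicates 1 to 3 and -1.01 without replicates 4 and 6. The membrane anchors that hold the quinone site, Sdhc and Sdhd, had log2 fold changes of -0.28 (SE 0.26) and 0.065 (SE 0.30), and the sign of Sdhd changed with single libraries. Per kilobase of transcript Sdhd was the most abundant of the 4 with corn oil (323 CPM per kb), Sdhb was next to it (322), and Sdhc (63.3) and Sdha (43.4) were the least.

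In complex III 4 of the 5 small subunits and both core proteins were below 0. Of the 2 nuclear catalytic subunits Cyc1 was below and Uqcrfs1 above. None of these genes was at an unadjusted p under 0.05. Uqcrq, a small subunit beside cytochrome b (chromosome 11, 53427922 to 53430831, minus strand), stood at 369, 472, 319 and 509 normalised CPM with corn oil and at 142, 272 and 450.3 with tamoxifen. Of the tamoxifen libraries 5 lay below every corn oil library and replicate 6 among them, with replicates 2 and 3 lowest. Its log2 fold change of -0.65 (SE 0.32, edgeR p 0.0623, adjusted p 0.551) was -0.26 without tamoxifen replicates 1 to 3. Uqcr10, another small subunit (chromosome 11, 4701973 to 4704342, minus strand), stood at 417, 384, 351 and 364 with corn oil and at 161, 273 and 385 with tamoxifen, again with only replicate 6 inside the corn oil range. Its log2 fold change was -0.54 (SE 0.26, edgeR p 0.0545, adjusted p 0.527). Uqcr11, the most abundant of complex III per kilobase with corn oil (1328 CPM per kb), was at -0.52 (SE 0.26) and Uqcrh, the hinge protein that meets cytochrome c1, at -0.40 (SE 0.22).

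The electron carriers of this step were Cyc1 (cytochrome c1), at -0.50 (SE 0.27), Cycs (cytochrome c), at -0.50 (SE 0.31), and Uqcrfs1 (the Rieske iron-sulphur protein), at 0.24 (SE 0.22) on the log2 scale. Uqcrfs1 stood at 126, 164, 188 and 157 normalised CPM with corn oil and at 134, 191 and 220 with tamoxifen, and the groups overlapped (edgeR p 0.297). Cycs stood at 100.2, 170.2, 105 and 221 with corn oil and at 66.2, 103 and 169.9 with tamoxifen, and was the least abundant of this set per kilobase (47.7 CPM per kb with corn oil). The core proteins Uqcrc1 and Uqcrc2, which face the matrix, were at -0.25 (SE 0.30) and -0.22 (SE 0.20). Uqcrb, a small subunit at the quinone site that overlaps Gm10767 on the opposite strand, was at 0.010 (SE 0.30, edgeR p 0.974).

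In complex IV all 13 tested members were below 0 without a length offset, 4 of them at an unadjusted p under 0.05. Cox5b, a zinc-binding nuclear subunit of the oxidase (chromosome 1, 36691449 to 36693681, plus strand), stood at 224, 302, 245 and 274 normalised CPM with corn oil. With tamoxifen it stood at 126, 99.1, 83.9, 178, 147 and 175. The groups did not overlap, and the gap lay between tamoxifen replicate 4 and corn oil replicate 1. The means were 261 ± 34.2 (SD, n = 4) and 135 ± 38.9 (SD, n = 6), which gave -0.95 on the log2 scale (SE 0.25, edgeR p 0.00205, adjusted p 0.212). DESeq2 gave it an adjusted p of 0.0435 and limma voom 0.00474. Without tamoxifen replicates 1 to 3 its log2 fold change was -0.64 (edgeR p 0.0383), and it ran from -1.05 to -0.83 with 1 library left out.

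Cox6b1, the subunit that joins the oxidase dimer on the cytochrome c side (chromosome 7, 30616861 to 30626151, minus strand), stood at 923, 869, 845 and 876 normalised CPM with corn oil. With tamoxifen it stood at 501, 325, 315, 593, 446 and 809. The corn oil libraries lay within a narrow band and all tamoxifen libraries below it, replicate 6 just below. Its means were 878 ± 32.5 (SD, n = 4) and 498 ± 185 (SD, n = 6), and its log2 fold change -0.82 (SE 0.27, edgeR p 0.0106, adjusted p 0.327). Cox7a2, the broadly expressed form of subunit VIIa (chromosome 9, 79755361 to 79759878, minus strand), stood at 259, 368, 366 and 384 with corn oil and at 108, 217 and 249.6 with tamoxifen. Its groups did not overlap, though corn oil replicate 1 stood only just above the highest tamoxifen library, and its log2 fold change was -0.86 (SE 0.28, edgeR p 0.00941, adjusted p 0.320). Without tamoxifen replicates 1 to 3 both were smaller, at -0.51 (edgeR p 0.125) for Cox6b1 and -0.52 (edgeR p 0.0860) for Cox7a2.

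Of the other complex IV members, Cox6c, a small membrane subunit, was at -0.67 (SE 0.31, edgeR p 0.0477, adjusted p 0.511) on the log2 scale. Cox5a, Cox6a1, Cox7a2l, Cox7b, Cox7c, Cox8a and Cox4i1 ran from -0.44 to -0.22, each with overlapping groups. Cox4i1, a nuclear subunit that joins the assembling core early, stood at 1010.5, 1182, 1020 and 1149 normalised CPM with corn oil and at 725, 829.4 and 1541 with tamoxifen. Its 5 other tamoxifen libraries lay below the corn oil libraries and replicate 6 far above them, which left a log2 fold change of -0.22 (SE 0.26). Cox4i1 overlaps Emc8 on the opposite strand and Cox6c overlaps Vps13b in the same way. Without strand such reads cannot be assigned to 1 gene, and how they were counted is not known. Cox6a1, at 906, 946, 772 and 969 with corn oil and 492, 620.2 and 1136 with tamoxifen, was likewise highest in tamoxifen replicate 6.

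The isoform sets showed which form the epithelium used. Cox4i1 led Cox4i2, a form linked to low oxygen in lung, by far: per kilobase they stood at 1463 and 0.134 CPM with corn oil. Cox4i2 did not pass the filter, with counts of 5, 0, 2 and 0 with corn oil and 1, 7, 9, 79, 15 and 0 with tamoxifen, and gets no fold change. Cox6a1 stood at 1573 CPM per kb with corn oil, and no row was named for the muscle form Cox6a2. Cox6b1 stood at 1421 CPM per kb and the testis form Cox6b2 at 3.83, with a log2 fold change of -0.91 for Cox6b2 that has an SE of 1.10. Cox7a2 stood at 522 CPM per kb, Cox7a2l (a factor of supercomplex assembly) at 95.3 and the heart and muscle form Cox7a1 at 16.6. Cox8a stood at 1343 CPM per kb, and no row was named for Cox8b. The order within each of these sets was the same with tamoxifen, where Cox4i1 stood at 1259 and Cox4i2 at 1.51 CPM per kb.

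In complex V, without a length offset, the 2 catalytic hexamer genes were above 0 and most others below. With that offset Atp5a1 was at 0.73 and Atp5b at 0.50 on the log2 scale. In that fit 13 of 17 complex V genes were below 0, with a median over the 17 of -0.11. Atp5a1, the alpha subunit of the catalytic hexamer, stood at 612, 422, 638 and 500.0 normalised CPM with corn oil. With tamoxifen it stood at 807, 899, 922, 1044, 770.4 and 711. Every tamoxifen library lay above every corn oil library, with replicate 4 highest and replicate 6 lowest. The means were 543 ± 100.4 (SD, n = 4) and 859 ± 120.5 (SD, n = 6), which gave 0.66 on the log2 scale (SE 0.22, edgeR p 0.00997, adjusted p 0.327). It was 0.64 without tamoxifen replicates 1 to 3 (edgeR p 0.0561) and 0.64 without replicates 4 and 6 (edgeR p 0.0115), and ran from 0.56 to 0.75 with 1 library left out. Atp5a1 shares exon sequence with the oppositely transcribed Haus1, and kits that do not mark strand cannot assign such reads.

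Atp5b, the beta subunit that carries the catalytic sites (chromosome 10, 128083273 to 128090391, plus strand), stood at 1224, 1334, 1028 and 1187 normalised CPM with corn oil and at 1286, 1581 and 1691 with tamoxifen. The groups overlapped through tamoxifen replicate 5 alone, and the log2 fold change was 0.36 (SE 0.20, edgeR p 0.0990, adjusted p 0.626). The other head and central stalk subunits were Atp5c1 (gamma) at -0.33 (SE 0.22), Atp5d (delta) at 0.14 (SE 0.19) and Atp5e (epsilon) at -0.60 (SE 0.30). The alpha, beta and delta genes were thus the higher members of complex V, and the other 14 were below 0 in this fit.

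All 4 peripheral stalk genes were lower, with a median log2 fold change of -0.46. Atp5j, coupling factor 6 (chromosome 16, 84827866 to 84835625, minus strand), stood at 655, 641, 1021 and 619 normalised CPM with corn oil and at 563, 348, 356, 350.3, 389 and 605 with tamoxifen. The groups did not overlap, but tamoxifen replicates 1 and 6 came close to the lower corn oil libraries, and corn oil replicate 3 stood far above the rest. Its log2 fold change was -0.75 (SE 0.25, edgeR p 0.0109, adjusted p 0.327) and -0.71 without tamoxifen replicates 1 to 3 (edgeR p 0.0598). Atp5o, the subunit that joins stalk and head and confers oligomycin sensitivity, was at -0.53 (SE 0.23, edgeR p 0.0424), Atp5h (subunit d) at -0.39 (SE 0.24) and Atp5f1 (subunit b) at -0.24 (SE 0.23). Atp5j shares exon sequence with Gabpa, which encodes the ETS-family subunit of GABP, and Atp5f1 with Wdr77, both on the opposite strand.

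The 3 genes for subunit c encode the same mature ring protein with different import signals, and differences between them were not tested. Atp5g1 (chromosome 11, 96068852 to 96075670, minus strand) stood at 266, 278, 317 and 343 normalised CPM with corn oil and at 244, 127, 133, 209, 195 and 211 with tamoxifen. Its groups did not overlap, and its log2 fold change was -0.69 (SE 0.23, edgeR p 0.0108, adjusted p 0.327). Atp5g3 stood at 352, 332, 784 and 417 with corn oil and at 288, 324 and 403 with tamoxifen. Its log2 fold change of -0.49 (SE 0.26) was -0.13 without corn oil replicate 3, the highest library. Atp5g2 stood at 24.3, 39.1, 43.9 and 63.2 with corn oil and at 23.2, 34.3 and 73.2 with tamoxifen, with a log2 fold change of -0.0059 (SE 0.38) and no settled direction. Per kilobase the order with corn oil was Atp5g3 (660.0 CPM per kb), Atp5g1 (505) and Atp5g2 (96.7), and it was the same with tamoxifen.

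The small membrane subunits Atp5j2 (subunit f), Atp5k (subunit e) and Atp5l (subunit g), which shape the dimer of the synthase, were at -0.69 (SE 0.28, edgeR p 0.0316), -0.57 (SE 0.26, edgeR p 0.0491) and -0.58 (SE 0.47). Atp5l has 9 near-identical pseudogenes, so its counts are uncertain. Atp5s and Atp5sl, which match the symbol rule but are not counted as structural subunits in current descriptions of the enzyme, were at -0.68 (SE 0.38) and -0.61 (SE 0.33). Both were low, at 31.7 ± 15.5 and 32.3 ± 11.2 normalised CPM with corn oil (SD, n = 4). Of all members 15 have a near-identical pseudogene in GENCODE, which can take or lend reads. These had a median log2 fold change of -0.39 (14 of 15 lower), and the 29 tested members without one -0.44 (23 of 29 lower).

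**Figure D3:**
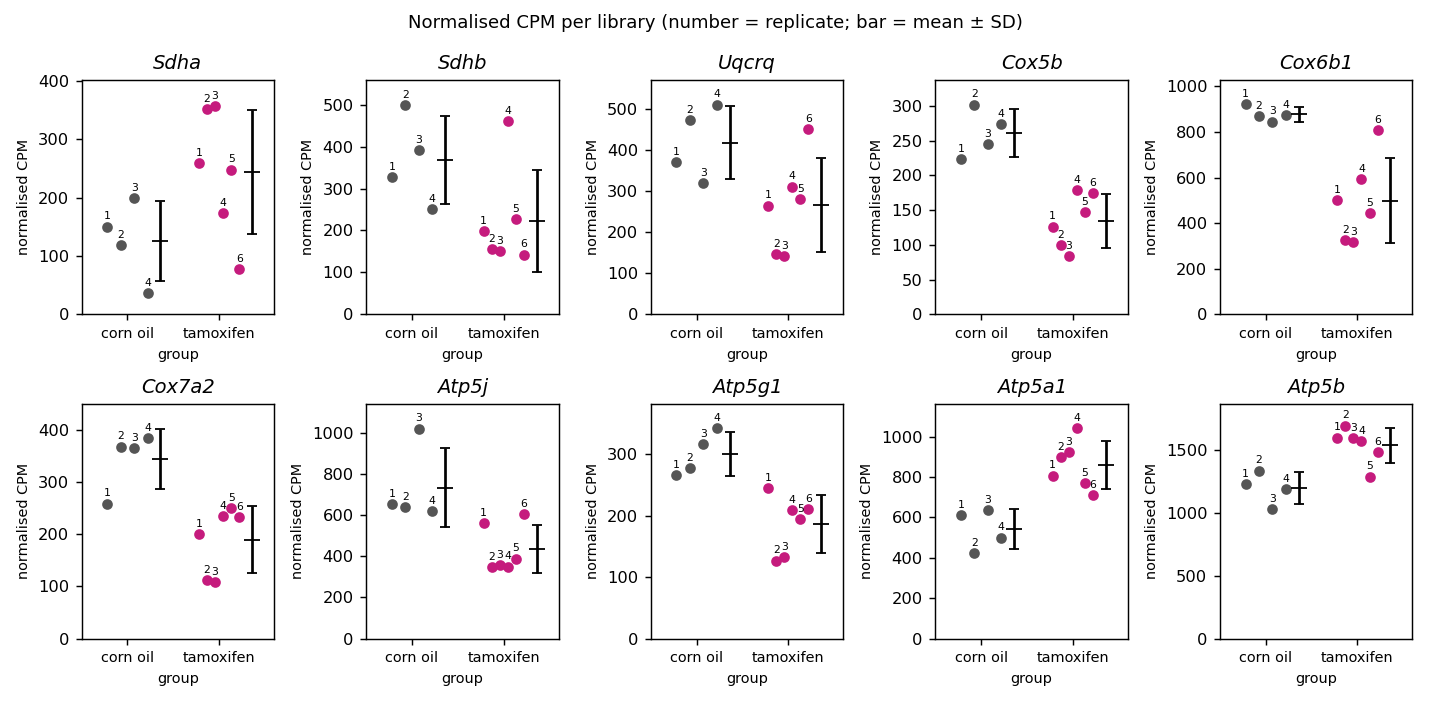
Normalised CPM of 10 members in each library, with corn oil in grey, tamoxifen in magenta, the replicate number beside each point and the mean ± SD as a bar. Cox5b, Cox6b1, Cox7a2, Atp5j and Atp5g1 are lower in every tamoxifen library than in any with corn oil, Atp5a1 is higher in every one, and Sdha, Sdhb, Uqcrq and Atp5b overlap.

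Across members, levels per kilobase with corn oil were led by Cox6a1, Cox4i1, Cox6b1, Cox8a and Uqcr11, from 1573 to 1328 CPM per kb. At the low end stood Cycs, Sdha, Atp5s, Cox7a1, Cox6b2 and Cox4i2, from 47.7 down to 0.134. Of the 43 pairs of neighbours in that order 38 differed by less than the larger of their SDs between corn oil libraries. The 5 that differed by more were Atp5g1 over Atp5d, Atp5f1 over Uqcrfs1, Cox7a2l over Sdhc, Cox7a1 over Cox6b2 and Cox6b2 over Cox4i2. With tamoxifen Cox6b1 moved from place 3 to 5 and Cox5b from 28 to 32, while Atp5b moved from 12 to 6 and Atp5a1 from 31 to 19.

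Members tended to vary together between libraries of the same group, most within complex IV and least within complex III and cytochrome c. After each gene was centred on its group means, the median Pearson's r over pairs was 0.45 within complex IV, 0.25 within complex V, 0.16 within complex II and 0.10 within complex III and cytochrome c. It was 0.20 for pairs from different complexes, 0.33 for members paired with complex I subunits and 0.0095 for all tested genes. Pairs with an r above 0 made up 66.5% over all tested members and 57.8% within complex III and cytochrome c, beside 50.7% over all tested genes. These values describe 10 libraries that the pairs share, along with their depth and the likeness of tamoxifen replicates 1 to 3. The part of transcript length in them was not tested.

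Most members have short transcripts, and short transcripts as a whole were lower with tamoxifen. Of the 968 tested genes with transcripts up to 1000 bases, 68.4% were lower, with a median log2 fold change of -0.31, while 49.1% of longer genes were lower, with a median of 0.013. Members up to 1000 bases were lower in 25 of 27 cases (median -0.53) and longer members in 11 of 16 (median -0.25). A fit with a smooth curve of each library on transcript length as an offset left 29 members lower and 15 higher, where 44.4% of all genes were lower. The median was then -0.077 over all members, -0.090 for complex III, -0.021 for complex IV and -0.11 for complex V, beside 0.089 for all tested genes. In that fit 1 member, Cox5b, was lower at an unadjusted p under 0.05 (3.7% of all genes), at -0.63 (edgeR p 0.0251), and 1 member, Atp5a1, was higher (5.47% of all genes), at 0.73 (edgeR p 0.00948). Cox6b1 was at -0.44, Cox7a2 at -0.49, Atp5j at -0.40 and Atp5g1 at -0.30, none at a p under 0.05. Atp5sl has no length in the annotation and was not adjusted. Whether the length trend arose in the tumours or in the making of the libraries was not tested.

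**Figure D4:**
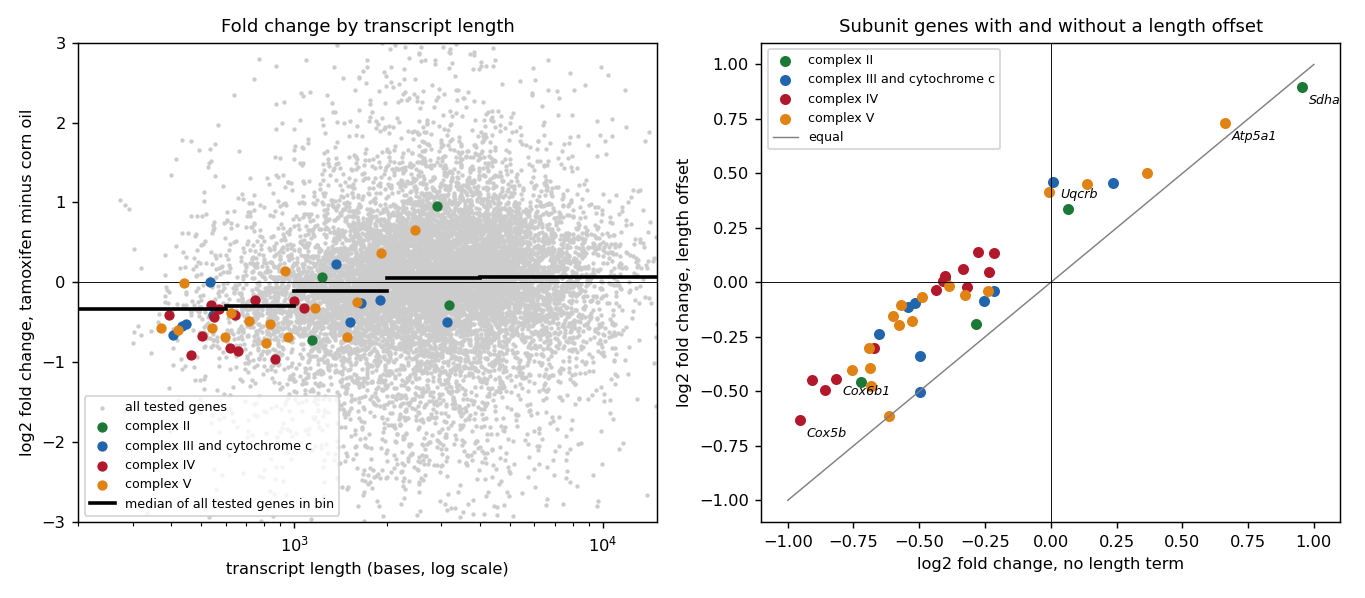
Left, log2 fold change (tamoxifen minus corn oil) against transcript length on a log axis for tested genes (grey), members by complex (colours) and the median of all tested genes in each length bin (black lines); 276 genes lie outside the axes. Right, each member's log2 fold change without and with the length offset: most points lie above the line of equality, and Cox5b stays at -0.63 and Atp5a1 at 0.73.

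The genes around the members were read from lists of related function. Of complex I subunits 32 of 35 were lower (50.7% of all genes), 13 of them at an unadjusted p under 0.05 (5.27% of all genes). Their median was -0.43, and -0.11 with the length offset. Ndufa3, an accessory subunit of complex I, was at -1.17 (SE 0.27, edgeR adjusted p 0.155) and Ndufa11, of its membrane arm, at -0.78 (SE 0.23, adjusted p 0.270). Of 28 assembly factors for complexes II to V 19 were lower and 9 higher, with a median of -0.22. Cox17, the copper chaperone for cytochrome c oxidase, stood at 176, 159.8, 289 and 206 normalised CPM with corn oil and at 121, 90.5, 85.3, 77.5, 118 and 109 with tamoxifen. Its groups did not overlap, and its log2 fold change was -1.05 (SE 0.23, edgeR adjusted p 0.150), larger in size than that of any member. Coa4, another complex IV assembly factor, was at -1.06 (SE 0.38, adjusted p 0.356). Among 8 subunits and regulators outside the symbol rule, 5 were lower, with 2010107E04Rik (a small ATP synthase protein) at -0.74 (SE 0.25, adjusted p 0.327). Ndufa4l2, a HIF target that resembles the complex IV subunit Ndufa4, was at 3.04 (SE 0.93, adjusted p 0.295).

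Other mitochondrial lists did not share the lower direction over all 10 libraries. Citric acid cycle and pyruvate dehydrogenase genes were lower in 6 of 18 cases (median 0.19), with 0 at an unadjusted p under 0.05; Dlat, the E2 subunit of pyruvate dehydrogenase, was at 0.66 (SE 0.35) and Pdha1, the E1 alpha subunit, at 0.46 (SE 0.30). Import and membrane genes were lower in 5 of 17 (median 0.23), with Vdac2, an outer membrane channel, at 0.51 (SE 0.21, edgeR p 0.0302) and Mfn2, a fusion protein, at 0.46 (SE 0.34). Regulators of mitochondrial biogenesis were lower in 5 of 15 (median 0.28). Among them Ppargc1a, the coactivator of respiratory genes, was at -3.03 (SE 1.06, edgeR p 0.0138) with non-overlapping groups at 8.68 ± 7.19 (SD, n = 4) and 1.06 ± 0.776 normalised CPM (SD, n = 6), and Myc was at 1.48 (SE 0.61, edgeR p 0.0309). Without tamoxifen replicates 1 to 3 the medians of these 3 lists were -0.061, -0.085 and -0.38, so their direction rests on those libraries, whereas the member median stayed below 0. Genes linked to the hypoxia factor HIF and to respiration were higher in 10 of 10 cases, where 49.3% of all genes were, with a median of 0.73 and 6 at an unadjusted p under 0.05 (4.43% of all genes). Egln3, an oxygen-sensing hydroxylase that HIF induces, was at 2.78 (SE 0.76, edgeR adjusted p 0.229), and without tamoxifen replicates 1 to 3 the list median was 0.72.

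Markers of other cells were read in the same libraries. Fibroblast markers were higher in 9 of 9 tested cases, and their summed CPM spanned 126 to 467 in the corn oil group and, in the tamoxifen group, 133 to 1052, highest in replicates 4 (1052) and 6 (709). Of the 10 markers Pdgfra and Fap were at 0 in some library. Muscle markers summed to 20.0 to 62.5 and 29.6 to 277, highest in replicate 6, and macrophage markers to 949.9 to 1418 and 824 to 2194, highest in replicate 4. Ductal epithelium markers were lower in 9 of 10 cases (50.7% of all genes), at 16422 to 32272 and 14831 to 26360 summed CPM. Their median log2 fold change was -0.51, beside -0.42 for the members, and -0.16 without tamoxifen replicates 1 to 3. Of these markers 3 were lower at an unadjusted p under 0.05 (5.27% of all genes). Of 7 islet markers 1 was tested, Ins2 (insulin), at 139, 2.62, 6.89 and 1.5 normalised CPM with corn oil and at 0 in each tamoxifen library. Islet markers summed to 2.54 to 221 CPM in the corn oil group, highest in replicate 1, and to 0 to 0.0871 in the tamoxifen group. All 3 tested acinar markers were lower (median -2.03), with sums of 22.6 to 209 and 33.6 to 88.9 CPM. Of the 9 tested macrophage markers 7 were below 0, none of these at an unadjusted p under 0.05, and Cd14 lay higher in each tamoxifen library than in any corn oil library, at 0.95 on the log2 scale (SE 0.25, edgeR p 0.00237, adjusted p 0.227). The part of these markers in the member values was not tested. In bulk RNA fewer cells of a type and less RNA per cell cannot be told apart.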

How the data were processed

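RNA-seq was made from laser-captured tumour epithelium with a Qiagen micro kit, SMART-seq v4 and Nextera XT, per the labels' protocols; these kits do not mark strand. The deposited table holds the authors' raw counts by gene symbol, made, by the submitters' processing notes, with featureCounts 1.5.0-p3 from STAR 2.5.2b alignments to mm10 after bcl2fastq 2.17. Its annotation, strand setting and treatment of multi-mapping reads are not given in the sources examined. Counts were tested with edgeR 4.0.16 in R 4.3.3: filterByExpr, TMM factors, quasi-likelihood F test over all 13006 genes kept, Benjamini-Hochberg adjustment, FDR 0.05. SE is the absolute log2 fold change divided by the square root of F. Normalised CPM are TMM-scaled, and log2 CPM used a prior count of 2. DESeq2 1.42.0 and limma 3.58.1 were alternatives, with other scalings, filters, covariates, a length offset (loess span 0.5, lengths for 94.1% of tested genes) and libraries left out. Transcript lengths and positions came from GENCODE M21 (GRCm38), promoters from RefSeq (GRCm38.p6), and pseudogenes with at least 95% identity over at least 100 bases from BLAST 2.17.0. When the comparison was simulated with known changes (12649 genes, tested on simulated data), edgeR found 2% of 2-fold, 48% of 4-fold, 56.5% of 8-fold and 68.1% of 16-fold changes and made 2 false calls.

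Members and lists were chosen with earlier results of these data known. Values are given for the 2 members of smallest p per direction in each complex, isoform sets, and the most and least abundant members; of other lists, the 2 genes of smallest p. Further genes were named after their values were seen. Figures were drawn with matplotlib 3.10.9.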

Additional observations from a re-analysis of the deposited data

Results flagged for a closer look

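In 5 of the 64 groups of libraries examined, 1 library stood apart from the rest of its group. Chance flags about 1 in 20 groups. Atp5j, a peripheral stalk gene of complex V, was at 1021 normalised CPM in corn oil replicate 3, against 619 to 655 in the other corn oil libraries. Cox7a2 of complex IV was at 259 in corn oil replicate 1, against 366 to 384. Cox4i1 was at 1541 in tamoxifen replicate 6, the shallowest library, against 725 to 969 in the other tamoxifen libraries. Cox4i2 was at 4.96 in tamoxifen replicate 4 (79 counts), against 0 to 0.746, and Sdhb of complex II was at 462 in the same library, against 142 to 226. That library also held the most fibroblast and macrophage marker RNA, and the part of this in the 2 values was not tested.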

How the results depend on the processing

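Of 44 tested members 32 kept their sign under all 23 alternatives, 27 lower and 5 higher (Atp5a1, Atp5b, Atp5d, Sdha and Uqcrfs1). Cox6b2 kept it under the 22 in which it was tested. Members past the FDR numbered 0 except 1 with DESeq2 (1.89% of all genes) and 18 with limma voom (9.62% of all genes). With each library left out they numbered 0. An FDR of 0.1 called 0 members of 18 genes. Members lower at an unadjusted p under 0.05 numbered 26 with limma voom (15.6% of all genes). They numbered 16 with detected genes as a covariate (7.88% of all genes) and 1 with the length offset (3.7%). With tamoxifen replicates 1 to 3 as 1 sample there were 5 (2.67%), and without them 1 (2.23%). Without replicates 4 and 6 there were 22 (10.1%), and with 1 library left out 5 to 16 (3.41% to 7.07%). The count of 5 came without tamoxifen replicate 2, 3 or 5, and that of 16 without replicate 6. Members higher numbered 3 with DESeq2 (6.13% of all genes), 4 with limma voom (11.3%) and 2 with detected genes (4.54%). There were 0 without tamoxifen replicates 1 to 3 (2.39%) and 2 without replicates 4 and 6 (8.21%). With 1 library left out there were 1 to 2 (3.58% to 5.76%). The count of 2 came without corn oil replicate 3 or tamoxifen replicate 6. Medians that moved were, with the length offset, -0.077 for all members, -0.090 for complex III, -0.021 for complex IV and -0.11 for complex V; without tamoxifen replicates 1 to 3, -0.26 for complex III; and with limma voom, -0.72 for complex IV. The cause was not tested.

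The log2 fold changes of 11 members turned sign. Atp5g2 was at 0.0096 with RLE factors, 0.0088 with DESeq2, 0.11 with sex as a covariate, 0.42 with the length offset, 0.0034 without tamoxifen replicates 1 to 3, and -0.23 to 0.25 with 1 library left out. With the length offset Cox4i1 was at 0.14, Cox6a1 at 0.060, Cox7a1 at 0.028, Cox5a at 0.0072, Uqcrh at 0.021, Cox7b at 0.047 and Cox7c at 0.14. Without tamoxifen replicates 1 to 3 Uqcrc1 was at 0.088. Sdhd was at -0.066 with sex, -0.072 without tamoxifen replicates 4 and 6, and -0.13 to 0.40 with 1 library left out. Uqcrb was at -0.00060 with upper-quartile factors, -0.0021 with limma voom, -0.051 with sex, -0.046 with tamoxifen replicates 1 to 3 as 1 sample, -0.079 without them, and -0.22 to 0.28 with 1 library left out. No paired analysis was possible because the replicate numbers are in accession order and pair no libraries. On simulated data, with 12649 genes tested, edgeR recovered 2% of 2-fold changes. Recovery for genes with the levels and spread of the members was not tested.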
